A study of Mus musculus with 12 samples.

Results

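Glucose taken up by a macrophage is split by glycolysis into pyruvate, which is either reduced to lactate and exported or passed to the mitochondria, while the pentose phosphate pathway branches off after the first phosphorylation and yields NADPH and ribose phosphate. Hypoxia-inducible factor 1 alpha (HIF-1α, encoded by Hif1a) is degraded when oxygen is plentiful, because prolyl hydroxylases mark it for removal, and in low oxygen it switches on many genes of glucose uptake and glycolysis. AMP-activated protein kinase (AMPK) is a sensor of low cellular energy, and tumour-associated macrophages (TAMs) are known to use glycolysis heavily in poorly perfused tumours. The 38 genes described here, of 55401 listed in each count table, were taken by name as 2 glucose transporters, 3 hexokinases, 9 genes of upper glycolysis, 5 of lower glycolysis, 6 that set the fate of pyruvate and lactate, 4 of the pentose phosphate pathway, 3 of the HIF pathway and 6 genes known to be induced by hypoxia. All 38 had enough counts to be tested in both comparisons.

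The libraries were bulk RNA-seq of TAMs sorted from subcutaneous tumours of B16-F10, a mouse melanoma line, grown in mice aged 5 weeks on a C57BL/6 background. The methods give the gate for TAMs as CD45+CD11b+Ly6C-Ly6G-F4/80+, whereas legends of the supplementary figures write Ly6C+, with Ly6G+ or Ly6G-. In the first comparison, 3 AMPK-KO libraries from AMPKfl/flLyz2cre mice (written Lyz2cre/cre in the sample titles), in which Cre is driven by the myeloid gene Lyz2, were set against 3 WT libraries from AMPKfl/fl mice, which carry the floxed alleles without Cre, all at day 15. In the second, 3 late-stage libraries (day 15) were set against 3 early-stage libraries (day 8), all labelled WT. The labels do not say whether a library came from 1 animal or from pooled animals, so the p-values below measure only the spread between these libraries.

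Library totals ranged from 71019494 to 84470374 counts. The labels name AMPK without its subunit, and Prkaa1, which encodes the catalytic subunit α1, stood at 68.8, 62.8 and 63.3 CPM (counts per 1e6 counts of the TMM-scaled library) in the WT libraries and at 47.0, 40.9 and 40.8 CPM in the AMPK-KO libraries, a log2 difference of -0.60 (SE 0.07, adjusted p = 2.3e-04, edgeR's quasi-likelihood test). All 10 macrophage markers were detected in every library. Their summed level ran from 12565 to 13960 CPM in WT and from 12727 to 13095 CPM in AMPK-KO, with 2 higher and 1 lower. It ran from 9721 to 12147 CPM in early-stage libraries, lowest in replicate 3. In late-stage libraries it ran from 12747 to 12837 CPM, above every early-stage library, with 1 of 10 markers higher. Markers of other cells also moved. The summed level of 10 melanoma markers was 1463 to 1477 CPM in WT and 952 to 996 CPM in AMPK-KO, with 8 of 10 lower, and 2502 to 2562 CPM in early-stage and 1235 to 1812 CPM in late-stage libraries, again with 8 of 10 lower. Gpnmb and Mitf on that list are also expressed by macrophages. The 5 monocyte markers summed to 1029 to 1308 CPM in early-stage and 359 to 424 CPM in late-stage libraries, with 5 of 5 lower. In AMPK-KO libraries, all 7 NK cell markers (summed level 36.0 to 41.7 CPM in WT and 85.1 to 90.8 CPM in AMPK-KO), 7 of 8 T cell markers (96.6 to 113 CPM and 187 to 192 CPM), 6 of 7 dendritic cell markers (80.7 to 91.1 CPM and 125 to 132 CPM), all 6 fibroblast markers (570 to 617 CPM and 741 to 822 CPM) and 4 of 9 neutrophil markers (112 to 119 CPM and 184 to 186 CPM) were higher. The monocyte sum (1397 to 1435 CPM and 1459 to 1519 CPM, with 3 of 5 higher and 1 lower) and the endothelial sum (50.3 to 58.2 CPM and 116 to 120 CPM, with 2 of 5 tested higher and 1 lower) were also higher. The sums of erythroid markers (22.5 to 25.1 CPM and 7.67 to 9.17 CPM, 4 of 5 tested lower) and of B cell markers (61.7 to 68.0 CPM and 53.4 to 54.6 CPM, 4 of 6 lower and 1 higher) were lower. The median log2 fold change of the 6 B cell markers was -4.06, a larger change than their sum shows. The part of these cells in the changes described below was not tested. The neutrophil marker Ly6g was at 0 in all WT and AMPK-KO libraries. The 4 Y-linked genes summed to 128 to 153 CPM in the WT and AMPK-KO libraries and to 41.5 to 48.8 CPM in early-stage libraries, but to 0 to 4 counts in late-stage libraries, while Xist, expressed from the inactive X chromosome, stood at 164 to 286 CPM in early-stage and 300 to 496 CPM in late-stage libraries, against 0.83 to 2.19 CPM in WT and 0 to 0.10 CPM in AMPK-KO libraries. Sex and stage therefore cannot be told apart in the second comparison. Likewise, in bulk RNA fewer cells of a type and less RNA per cell cannot be told apart. The paper's methods name female mice, whereas Y-linked RNA was present in the WT, AMPK-KO and early-stage libraries. Each early-stage library held both Y-linked RNA and Xist. The source of the Y-linked RNA, and whether a library mixed male and female animals, was not tested.

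In AMPK-KO TAMs, 9 of the 38 genes were higher and 5 were lower than in WT (adjusted p under 0.05, edgeR's quasi-likelihood test with Benjamini-Hochberg adjustment over 17532 genes), and 24 did not pass. The genes that rose included the glucose transporter gene Slc2a6, the hexokinase genes Hk1 and Hk3, and Pfkp, Pfkfb4 and Aldoc of upper glycolysis. The others were Hif1a itself and the hypoxia targets Vegfa and Ndrg1. Those that fell were 3 of the 4 pentose phosphate genes, the lower glycolytic gene Pgam1 and the hypoxia target Adm. The 36.8% of members called compares with 21.1% of all genes tested, split into 11.3% higher and 9.78% lower. The WT and AMPK-KO libraries did not overlap for 24 members, against 37.2% of all genes. The members did not move in 1 direction: their median log2 fold change was -0.02, beside -0.0037 for all genes tested, with a range from -1.13 to 0.70. Adm was the only member past the fold limit of the study's own rule (absolute log2 fold change above 1), which 3.34% of genes passed together with the adjusted p (1.87% between the stages, where no member did).

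**Figure D1:**
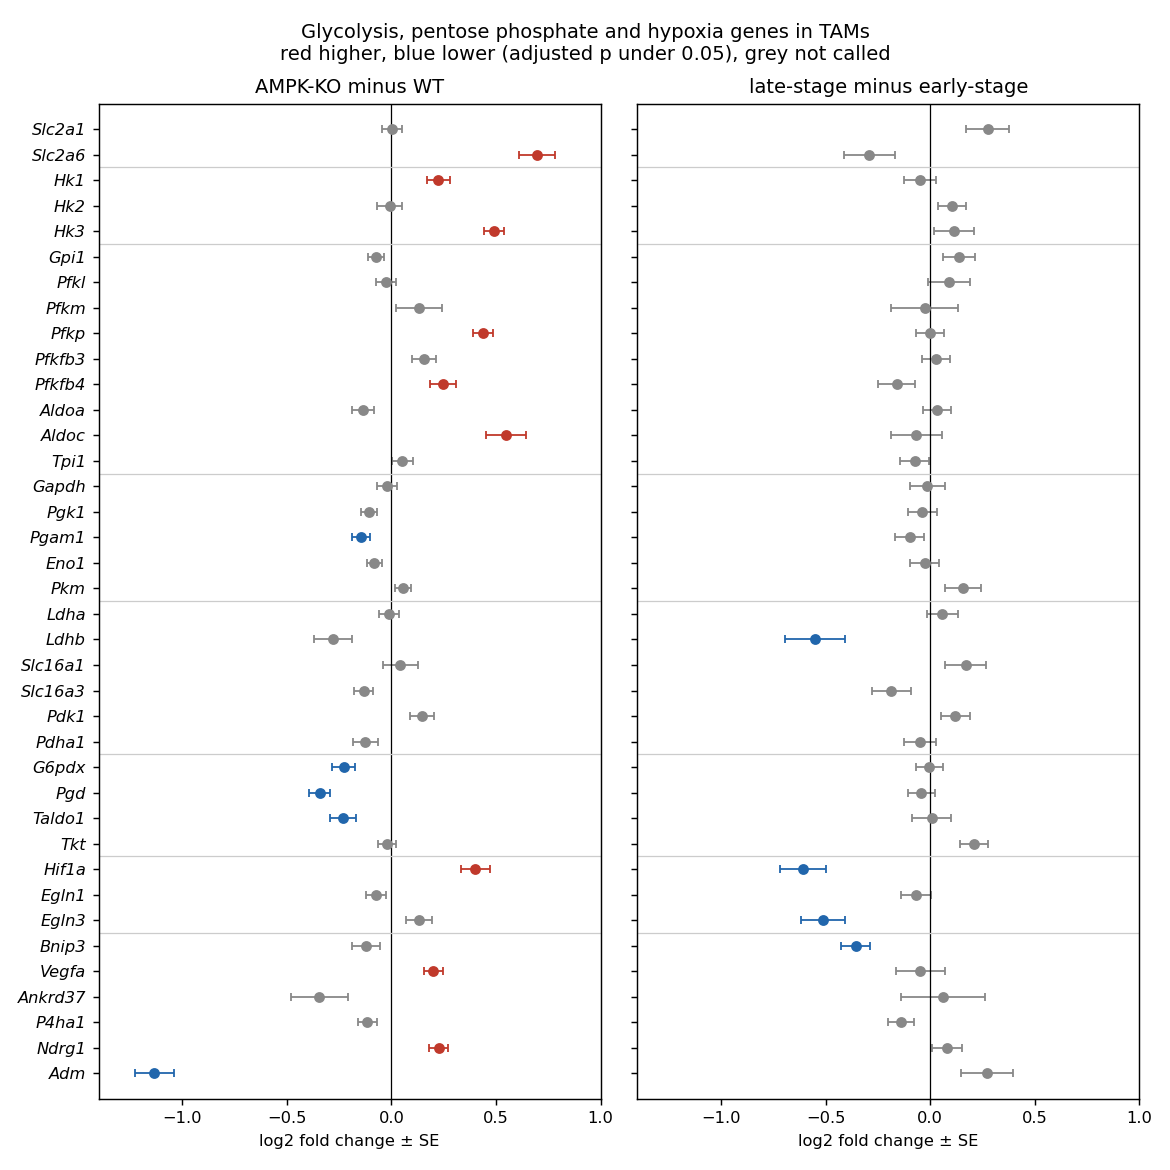
Log2 fold change (x axis) with its standard error for each of the 38 genes (y axis, grouped by role), for AMPK-KO minus WT on the left and late-stage minus early-stage on the right, n = 3 libraries per group. Red and blue points passed an adjusted p of 0.05, 9 higher and 5 lower on the left, 0 higher and 4 lower on the right.

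Of the glucose transporters, Slc2a6 rose and Slc2a1 did not pass the test. Slc2a6 (ENSMUSG00000036067.12, chr2:27021363-27027998 on the minus strand of GRCm38) encodes GLUT6, a transporter of leukocytes and spleen, and read 17.0, 19.9 and 19.7 CPM in WT and 31.9, 29.4 and 30.5 CPM in AMPK-KO TAMs. Every AMPK-KO library lay above every WT library, and the rise of 0.70 on the log2 scale (SE 0.09, adjusted p = 2.6e-04) was the largest among the 38. Slc2a1 encodes GLUT1, the common glucose transporter of growing and activated cells, and read 453, 486 and 476 CPM in WT and 466, 495 and 459 CPM in AMPK-KO TAMs. The groups overlapped, with a log2 difference of 0.0045 (SE 0.05, adjusted p = 0.962). Per kilobase of exon, Slc2a1 remained the main transcript of the pair, with 95.8% ± 0.22 (SD, n = 3) of their summed CPM per kilobase in WT and 93.4% ± 0.46 in AMPK-KO.

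Hexokinases trap glucose as glucose 6-phosphate, and 2 of the 3 rose. Hk3 (ENSMUSG00000025877.14, chr13:55005985-55021385, minus strand), the form typical of myeloid cells, stood at 377, 410 and 391 CPM in WT and at 539, 559 and 558 CPM in AMPK-KO TAMs. The groups were well apart, with a log2 difference of 0.49 (SE 0.05, adjusted p = 4.1e-05). Hk1, the widespread form bound to mitochondria, stood at 179, 166 and 163 CPM in WT and at 195, 207 and 192 CPM in AMPK-KO. This smaller difference (log2 0.22, SE 0.05, adjusted p = 0.0149) was lost without AMPK-KO replicate 2 (adjusted p = 0.0853) and without WT replicate 3 (adjusted p = 0.0961). Hk2, the form induced by insulin and hypoxia, ran from 178 to 201 CPM in WT and from 179 to 195 CPM in AMPK-KO, with a log2 difference of -0.01 (SE 0.06). Hk3 was the main hexokinase transcript per kilobase of exon in every group, and its share was 67.6% ± 2.17 in WT and 73.4% ± 0.63 in AMPK-KO (SD, n = 3).

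In upper glycolysis, 3 of 9 genes rose and none fell. Pfkp (ENSMUSG00000021196.14, chr13:6579768-6648777, minus strand), the platelet-type phosphofructokinase of the committed step, read 250, 234 and 233 CPM in WT and 325, 329 and 317 CPM in AMPK-KO TAMs. It rose by 0.44 on the log2 scale (SE 0.05, adjusted p = 9.4e-05), with no overlap between the groups. Its exons overlap those of Pitrm1 on the opposite strand over 748 of 13401 bases, and how strand was used in counting is not given in the sources used here. The liver form Pfkl ran from 278 to 280 CPM in WT and from 265 to 288 CPM in AMPK-KO, and the muscle form Pfkm from 11.7 to 13.9 CPM and from 13.1 to 15.7 CPM. Neither passed the test. Within the family the share of Pfkp per kilobase of exon was 28.1% ± 0.93 in WT and 34.8% ± 1.19 in AMPK-KO (SD, n = 3). With the longest transcript in place of all exons that share was 50.0% in AMPK-KO, so that the order of Pfkp and Pfkl depends on the length used.

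Pfkfb4 makes the phosphofructokinase activator fructose 2,6-bisphosphate, as does Pfkfb3. It stood at 50.4, 51.6 and 51.9 CPM in WT and at 63.8, 57.1 and 61.9 CPM in AMPK-KO TAMs, a rise of 0.25 (log2, SE 0.06, adjusted p = 0.0155). The groups did not overlap, but the call was lost without AMPK-KO replicate 1 (adjusted p = 0.0734) and without WT replicate 3 (adjusted p = 0.0586). Pfkfb3 had a log2 difference of 0.16 (SE 0.06, adjusted p = 0.0832). Aldoc, the brain-type aldolase, was at 9.94, 10.8 and 10.7 CPM in WT and at 14.8, 14.8 and 16.5 CPM in AMPK-KO (log2 0.55, SE 0.10, adjusted p = 0.0025). Aldoc remained a minor form: Aldoa, the muscle-type aldolase, held 99.5% of the CPM per kilobase of the pair in WT and 99.2% in AMPK-KO, and itself had a log2 difference of -0.14 (SE 0.05, adjusted p = 0.0897). The isomerases Gpi1 and Tpi1 had log2 fold changes of -0.07 and 0.05 and did not pass.

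**Figure D2:**
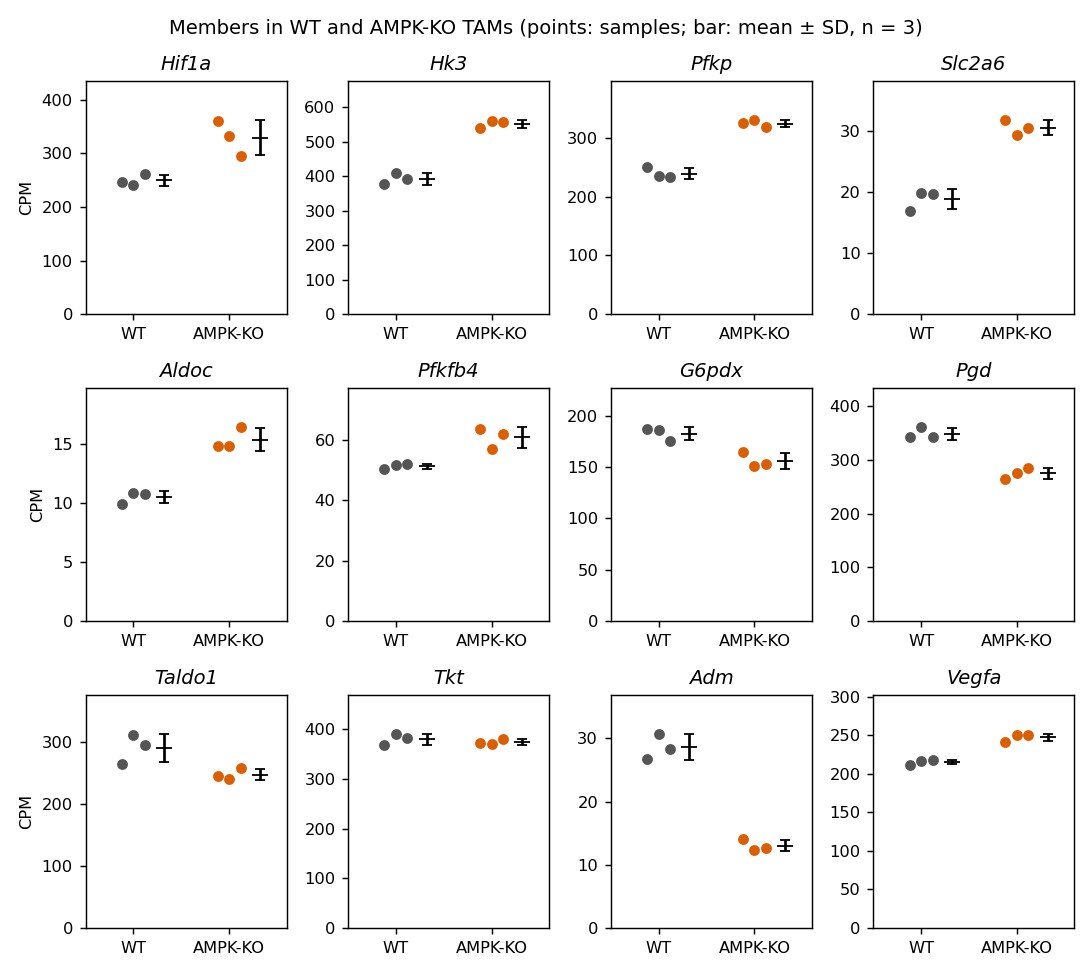
CPM (y axis, from 0) of 12 of the genes in each WT library (grey) and each AMPK-KO library (orange), with the mean and SD of each group beside the points (n = 3). Hif1a, Hk3, Pfkp, Slc2a6, Aldoc, Pfkfb4 and Vegfa were higher in every AMPK-KO library, G6pdx, Pgd, Taldo1 and Adm were lower in every one, and Tkt overlapped.

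In lower glycolysis, Pgam1 passed the test and Gapdh, Pgk1, Eno1 and Pkm did not. Pgam1, the phosphoglycerate mutase, ran from 676 to 730 CPM in WT and from 630 to 636 CPM in AMPK-KO (log2 -0.15, SE 0.04, adjusted p = 0.0335). That call was lost in 5 of the 6 fits that left out a library, all but the one without WT replicate 1, with adjusted p-values up to 0.142 (without WT replicate 3). Pgk1, the phosphoglycerate kinase, and Eno1, the main enolase, had log2 fold changes of -0.11 and -0.08 (adjusted p = 0.0665 and 0.139). Pkm, the pyruvate kinase of macrophages, had means of 3210 CPM in WT and 3333 CPM in AMPK-KO (log2 0.05, SE 0.04, adjusted p = 0.383). Same-strand exons of Gm49759 overlap 767 of the 5001 exon bases of Pkm.

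The Gapdh row, for the dehydrogenase often used as a reference gene, held far fewer counts than the other genes that share a stretch of its transcript. It held 245944 counts over the 12 libraries, whereas 79 other annotated genes with a stretch of at least 150 bases at 95% identity or more, 76 of them pseudogenes, held 4704392. Of these, 10 had more counts than Gapdh itself. The counts are those of whole rows, and which of the reads came from Gapdh was not tested. In CPM, the Gapdh row read 237, 232 and 242 in WT and 241, 223 and 236 in AMPK-KO TAMs, and with the copies added it read 4852, 5233 and 5005 in WT and 4519, 4569 and 4757 in AMPK-KO. The row alone had a log2 difference of -0.02 (SE 0.05, adjusted p = 0.792), and the sum had -0.12 (SE 0.04, adjusted p = 0.0438), so the level and the call of Gapdh in these tables are uncertain. For the other members, such copies held at most 7.38% as many counts as the gene (Eno1), followed by Pgam1 with 4.23%.

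**Figure D3:**
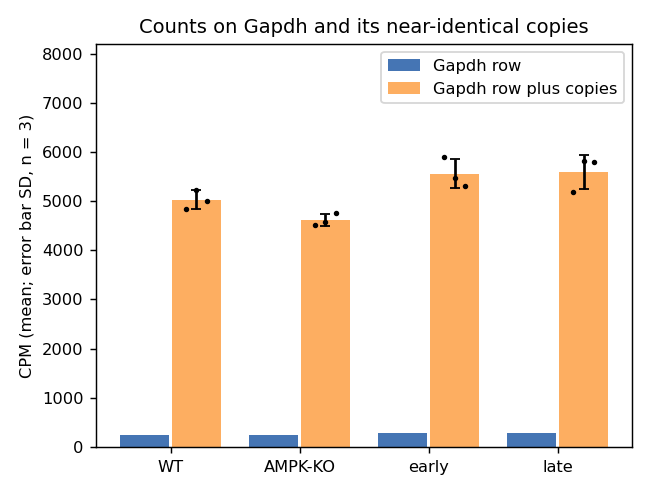
Mean CPM (y axis) of the Gapdh row (blue) and of the Gapdh row plus the rows of 79 other genes with a near-identical stretch (orange) in each group, with single libraries as points and the SD as the error bar on the orange bars (n = 3). The Gapdh row held 4.72% to 5.09% of the summed counts in the 4 groups.

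Of the 6 genes for the fate of pyruvate and lactate, 0 passed the test, and 3 had an unadjusted p under 0.05. Ldhb, whose product favours the oxidation of lactate to pyruvate, read 19.3, 19.7 and 20.7 CPM in WT and 16.1, 15.1 and 18.0 CPM in AMPK-KO TAMs. The groups did not overlap, and its log2 difference of -0.28 (SE 0.09) had an adjusted p of 0.0579 with edgeR's quasi-likelihood test and of 0.0480 with DESeq2. Ldha, the form that favours lactate production, had a log2 difference of -0.01 (SE 0.05) and held 97.3% of the lactate dehydrogenase CPM per kilobase in WT and 97.7% in AMPK-KO. The lactate exporter gene Slc16a3 (MCT4) had a log2 difference of -0.13 (adjusted p = 0.0663) and the lactate carrier gene Slc16a1 (MCT1) of 0.04. Pdk1, which inactivates pyruvate dehydrogenase, and Pdha1, a subunit of that enzyme, had 0.14 and -0.12, with adjusted p-values of 0.106 and 0.173.

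Of the 4 pentose phosphate genes, 3 fell and 0 rose. Both genes of the oxidative, NADPH-yielding steps fell, as did 1 of the 2 genes of the non-oxidative branch. G6pdx (ENSMUSG00000031400.10, chrX:74409483-74429194, minus strand), for the first and rate-limiting dehydrogenase, stood at 187, 186 and 175 CPM in WT and at 165, 151 and 153 CPM in AMPK-KO TAMs. Every AMPK-KO library lay below every WT library (log2 -0.23, SE 0.05, adjusted p = 0.0127), and the call was lost without AMPK-KO replicate 2 (adjusted p = 0.0730). Exons of Ikbkg on the opposite strand overlap 418 of the 3080 exon bases of G6pdx.

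Pgd (ENSMUSG00000028961.15, chr4:149149991-149166771, minus strand), for the second NADPH-yielding dehydrogenase, stood at 342, 361 and 342 CPM in WT and at 264, 275 and 285 CPM in AMPK-KO. It fell by 0.34 on the log2 scale (SE 0.05, adjusted p = 6.0e-04), its mean fell by 21.2%, and the gene stayed called in all 13 alternatives tried. Taldo1, the transaldolase, ran from 265 to 311 CPM in WT and from 241 to 258 CPM in AMPK-KO (log2 -0.23, SE 0.06, adjusted p = 0.0239), and 4 of the 6 fits without a library lost the call (without AMPK-KO replicates 1 and 2 and WT replicates 2 and 3, adjusted p = 0.0834, 0.110, 0.0817 and 0.0935). Tkt, the transketolase, overlapped between the groups, with means of 380 ± 11.7 CPM and 375 ± 5.52 CPM (SD, n = 3). The sums of melanoma, erythroid and B cell markers given above were lower in AMPK-KO too, and their part in the fall of these 3 genes was not tested.

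The start regions of G6pdx and Pgd are shown because these genes fell together. Each is a RefSeq window of 300 bases on GRCm38.p6, from 250 bases before to 50 after an annotated start, printed along the strand of the gene, with capitals at matches to TGACNNNGC, the core of the antioxidant response element, searched on both strands.
G6pdx (chrX:74428831-74429130, minus strand): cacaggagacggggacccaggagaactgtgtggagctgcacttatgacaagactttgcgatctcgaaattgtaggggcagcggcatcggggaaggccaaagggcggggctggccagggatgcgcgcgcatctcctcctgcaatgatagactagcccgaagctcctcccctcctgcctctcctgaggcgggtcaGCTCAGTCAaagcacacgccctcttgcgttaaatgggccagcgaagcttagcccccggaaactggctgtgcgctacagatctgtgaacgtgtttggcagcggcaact
Pgd (chr4:149166033-149166332, minus strand): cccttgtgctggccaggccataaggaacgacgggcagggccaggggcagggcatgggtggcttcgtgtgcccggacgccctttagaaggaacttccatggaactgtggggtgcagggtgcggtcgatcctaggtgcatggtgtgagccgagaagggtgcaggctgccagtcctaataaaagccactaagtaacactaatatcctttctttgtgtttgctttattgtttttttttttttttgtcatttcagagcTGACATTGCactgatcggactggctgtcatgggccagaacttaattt
The Pgd window, 1 of 2 annotated for that gene, was shown because it held the match. It lies inside the gene, downstream of the outermost start at 149166771. Its match begins at base 254 of the window, past the start around which the window is drawn, and so in transcribed sequence. The other window, chr4:149166656-149166955, covers the outermost start and held no match. The G6pdx window also lies inside its gene, downstream of the outermost start at 74429194. Of the 37 members with a window, 7 held TGACNNNGC, namely G6pdx, Pgd, Adm, P4ha1, Hk1, Aldoa and Slc16a1. By window, 7 of their 52 windows held it, and 12.4% of all 32841 windows did. Taldo1 and Tkt held none. These matches describe the letters only.

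Hif1a (ENSMUSG00000021109.13, chr12:73901375-73947530, plus strand) read 247, 240 and 261 CPM in WT and 361, 332 and 295 CPM in AMPK-KO TAMs. All 3 AMPK-KO libraries lay above all 3 WT libraries, with more spread among themselves, and the rise was 0.40 on the log2 scale (SE 0.07, adjusted p = 0.0024). It stayed called in all 13 alternatives, with adjusted p-values up to 0.0181. The prolyl hydroxylase genes Egln1 (PHD2) and Egln3 (PHD3), whose products mark HIF-1α for degradation, had log2 differences of -0.07 (SE 0.05) and 0.13 (SE 0.06) and did not pass (adjusted p = 0.343 and 0.166).

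The hypoxia targets split. Adm (ENSMUSG00000030790.15, chr7:110627661-110629820, plus strand), which encodes the vasodilator peptide adrenomedullin, read 26.8, 30.8 and 28.3 CPM in WT and 14.1, 12.4 and 12.7 CPM in AMPK-KO TAMs. It fell by 1.13 on the log2 scale (SE 0.09, adjusted p = 1.4e-05), the largest log2 change among the members in either comparison. The mean fell by 54.4%. Vegfa, the vascular endothelial growth factor, read 212, 216 and 218 CPM in WT and 242, 251 and 250 CPM in AMPK-KO (log2 0.20, SE 0.04, adjusted p = 0.0086), and missed the threshold without AMPK-KO replicate 2 (adjusted p = 0.0512). Ndrg1, a stress-response gene, read 229, 220 and 222 CPM in WT and 255, 264 and 267 CPM in AMPK-KO (log2 0.23, SE 0.04, adjusted p = 0.0049). Neither gene overlapped between the groups.

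Bnip3, the mitophagy receptor, P4ha1, a collagen prolyl hydroxylase subunit, and Ankrd37 had log2 fold changes of -0.12, -0.12 and -0.35 and did not pass. The Ankrd37 libraries spread from 13.5 to 20.3 CPM in WT and from 12.9 to 13.2 CPM in AMPK-KO. Its exons overlap those of neighbours on the opposite strand over 406 of 1539 bases. Without WT replicate 1 5 more members passed, namely Ankrd37, Bnip3, Aldoa and Slc16a3 as lower (adjusted p = 0.0132, 0.0399, 0.0288 and 0.0476) and Pfkfb3 as higher (adjusted p = 0.0221).

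Beyond the members, 81 other genes of the same pathways were followed, of which 74 could be tested in AMPK-KO against WT, with 4 higher and 7 lower, or 14.9% called against the 21.1% of all genes. Gpd2, the mitochondrial glycerol 3-phosphate dehydrogenase that reoxidises cytosolic NADH, rose by 0.50 (log2, SE 0.07, adjusted p = 5.9e-04), and Pgf, the placental growth factor, rose by 0.93 (SE 0.12, adjusted p = 3.7e-04). Nadk, the NAD kinase, rose by 0.18 (SE 0.04, adjusted p = 0.0153), as did Vhl, named after its value was seen, by 0.32 (SE 0.08, adjusted p = 0.0207). Among other sources of NADPH, the malic enzyme gene Me1 and the isocitrate dehydrogenase gene Idh1 fell by 0.87 (SE 0.11, adjusted p = 2.9e-04) and by 0.47 (SE 0.05, adjusted p = 1.4e-04). The pentose phosphate and NADPH genes beside the members did not fall as a group. Of the 11 tested, Nadk was higher, Me1 and Idh1 were lower and 8 were not called, with a median log2 fold change of 0.0011. P4ha2, a collagen prolyl hydroxylase subunit like P4ha1, fell by 0.72 (SE 0.09, adjusted p = 3.3e-04). Of the 15 tested lactate and pyruvate genes beside the members, 0 passed with edgeR or with DESeq2, and 3 had an unadjusted p under 0.05 with edgeR.

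Between the stages, 4 of the 38 genes were lower in late-stage TAMs and 0 were higher (adjusted p under 0.05, edgeR's quasi-likelihood test with Benjamini-Hochberg adjustment over 17630 genes). The 4 were Hif1a, its hydroxylase gene Egln3, the hypoxia target Bnip3 and Ldhb. They made up 10.5% of the members, near the 9.18% of all genes that were called (4.31% higher and 4.88% lower). Early-stage and late-stage libraries did not overlap for 14 members, against 31.2% of all genes, and 7 members had an unadjusted p under 0.05, of which Slc2a1 and Tkt had positive fold changes. DESeq2 also called 0 higher and 4 lower. The median log2 fold change of the members was -0.02, and no glucose transporter, hexokinase, glycolytic or pentose phosphate gene passed.

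Hif1a read 233, 277 and 322 CPM in early-stage and 175, 182 and 189 CPM in late-stage TAMs. Every late-stage library lay below every early-stage library, and the early-stage libraries spread widely (log2 -0.61, SE 0.11, adjusted p = 0.0077). It was the only one of the 4 that stayed called in all 13 alternatives, with adjusted p-values up to 0.0483. Egln3 (ENSMUSG00000035105.5, chr12:54178981-54203860, minus strand) read 81.9, 73.3 and 62.2 CPM in early-stage and 52.9, 48.8 and 50.6 CPM in late-stage TAMs (log2 -0.51, SE 0.10, adjusted p = 0.0140). It lost the call without early replicate 2 and without late replicates 2 and 3 (adjusted p = 0.0725, 0.0813 and 0.0712). The share of Egln3 in the CPM per kilobase of the hydroxylase pair was 38.4% ± 2.13 in early-stage and 31.5% ± 1.43 in late-stage TAMs (SD, n = 3), while Egln1 overlapped between the stages.

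Bnip3 (ENSMUSG00000078566.8, chr7:138890836-138909519, minus strand) read 210, 225 and 236 CPM in early-stage and 171, 176 and 176 CPM in late-stage TAMs (log2 -0.36, SE 0.07, adjusted p = 0.0127). Exons of Gm45507 on the opposite strand overlap 504 of its 2265 exon bases. The call was lost without early replicate 2 and without late replicates 1, 2 and 3 (adjusted p = 0.0681, 0.0657, 0.0757 and 0.0701). Ldhb read 25.9, 29.4 and 26.2 CPM in early-stage and 14.4, 20.4 and 20.8 CPM in late-stage TAMs, so that no late-stage library reached an early-stage one (log2 -0.55, SE 0.14, adjusted p = 0.0436). It lost the call without early replicate 2 and without late replicates 1, 2 and 3 (adjusted p = 0.156, 0.103, 0.0910 and 0.0794). The sums of melanoma and monocyte markers, given above, were also lower in every late-stage library, as were those of fibroblast markers (801 to 878 CPM and 393 to 555 CPM, 3 of 6 lower) and NK cell markers (88.1 to 99.3 CPM and 44.3 to 59.6 CPM, 4 of 7 lower). The neutrophil (121 to 128 CPM and 105 to 110 CPM), endothelial (84.6 to 88.4 CPM and 76.5 to 81.1 CPM) and erythroid (13.9 to 18.5 CPM and 12.1 to 12.5 CPM) sums were lower as well. T cell markers (159 to 169 CPM and 196 to 231 CPM, 3 of 8 higher) and B cell markers (78.7 to 92.5 CPM and 99.9 to 132 CPM, 3 of 6 higher) summed higher, as did the macrophage markers, given above. The part of these cells in the 4 changes was not tested.

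**Figure D4:**
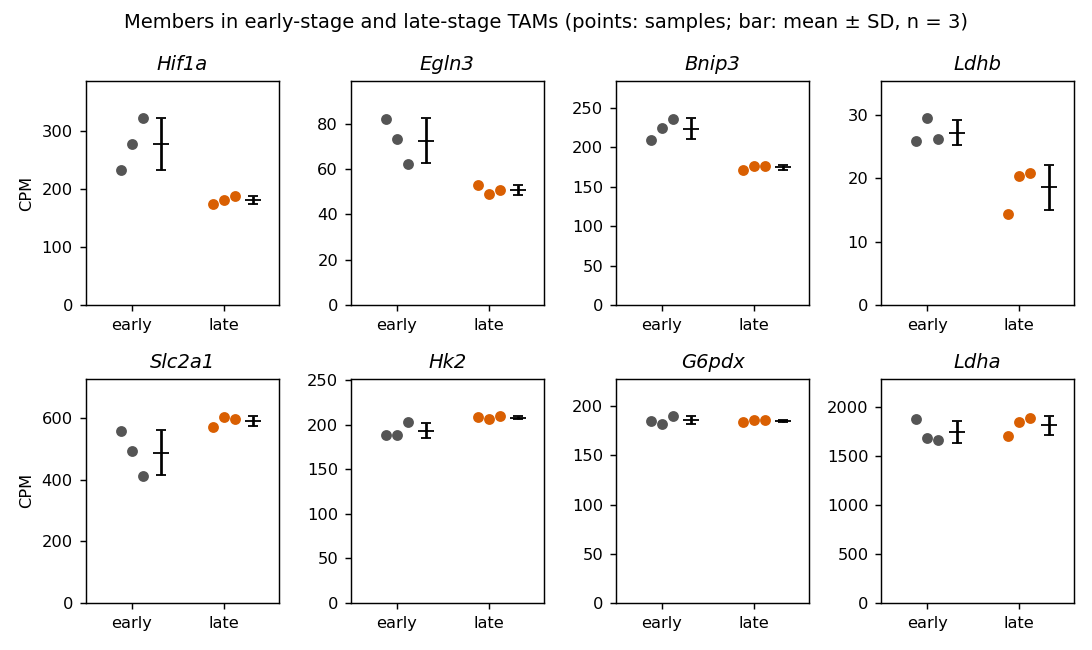
CPM (y axis, from 0) of 8 of the genes in each early-stage library (grey) and each late-stage library (orange), with the mean and SD of each group beside the points (n = 3). Hif1a, Egln3, Bnip3 and Ldhb, in the upper row, were lower in every late-stage library, and G6pdx and Ldha, in the lower row, overlapped.

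The start regions of Bnip3 and Egln3 are shown because both fell with Hif1a, and that of Ldha because it held the most matches and its transcript did not pass in either comparison. Capitals mark ACGTG, 1 form of the core of the hypoxia response element, on either strand. The form GCGTG was not searched for. A CACGTG run reads the same on both strands and counts as 2 matches. The windows are from RefSeq, on GRCm38.p6.
Bnip3 (chr7:138909457-138909756, minus strand): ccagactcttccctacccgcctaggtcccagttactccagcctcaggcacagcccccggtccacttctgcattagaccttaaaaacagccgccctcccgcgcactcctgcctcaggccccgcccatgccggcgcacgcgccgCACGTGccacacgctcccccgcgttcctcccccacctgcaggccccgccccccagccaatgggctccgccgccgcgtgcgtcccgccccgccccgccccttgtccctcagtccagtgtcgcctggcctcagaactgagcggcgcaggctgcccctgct
Egln3 (chr12:54203825-54204124, minus strand): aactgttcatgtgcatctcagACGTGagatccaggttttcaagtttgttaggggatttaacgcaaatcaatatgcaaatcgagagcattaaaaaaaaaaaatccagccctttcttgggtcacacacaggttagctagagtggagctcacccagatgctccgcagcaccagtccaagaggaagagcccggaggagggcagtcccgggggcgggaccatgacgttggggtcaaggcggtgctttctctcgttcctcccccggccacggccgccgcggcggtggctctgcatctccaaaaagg
Ldha (chr7:46845554-46845853, plus strand): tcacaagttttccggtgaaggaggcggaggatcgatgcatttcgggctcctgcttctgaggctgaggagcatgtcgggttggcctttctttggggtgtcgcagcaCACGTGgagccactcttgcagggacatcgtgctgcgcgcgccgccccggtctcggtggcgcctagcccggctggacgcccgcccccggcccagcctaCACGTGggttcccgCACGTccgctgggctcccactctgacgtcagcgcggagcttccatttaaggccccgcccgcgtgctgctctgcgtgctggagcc
The Ldha window shown held 5 matches, that of Bnip3 2 and that of Egln3 1. Another annotated Ldha window, chr7:46846832-46847131, held 0. The Ldha window shown lies inside the gene, downstream of the outermost start at 46841475. ACGTG was found in a window of 23 of the 37 members, or in 26 of their 52 windows, and in 19.6% of all windows. Hif1a itself had 3 matches. Of the members called in either comparison, Ldhb, Slc2a6, Pfkp, Pfkfb4, Pgd, Taldo1 and Adm had no ACGTG. Ndrg1 had no window.

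The other 34 members did not pass between the stages. Slc2a1 read 557, 494 and 410 CPM in early-stage and 571, 601 and 596 CPM in late-stage TAMs, all late-stage libraries being higher (log2 0.28, SE 0.10, adjusted p = 0.131). Tkt ran from 401 to 436 CPM and from 460 to 488 CPM (log2 0.21, SE 0.07, adjusted p = 0.0877). Without early replicate 1, Slc2a1, Tkt and Pkm passed as higher (log2 0.39, 0.25 and 0.25, adjusted p = 0.0168, 0.0224 and 0.0239).

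G6pdx read 185, 182 and 190 CPM in early-stage and 184, 186 and 186 CPM in late-stage TAMs, with a log2 difference of -0.0042 (SE 0.06, adjusted p = 0.978). It lies on the X chromosome, as do Pgk1 and Pdha1, and neither of those passed. Early replicate 3 had the lowest early-stage level of many members across the roles. Among them were Slc2a1, Hk3, Pfkm, Pkm, Ldha, Taldo1, Tkt, Vegfa, Ankrd37, Adm and the called Egln3. It had the highest level of others, among them Hif1a, Bnip3, Hk2 and G6pdx. Among the 8 roles, the HIF pathway regulators had the lowest median (log2 -0.51), and the medians of the other 7 lay between -0.03 and 0.11. Of the 81 other pathway genes, 74 were tested, 0 were higher and 7 were lower, 9.46% against the 9.18% of all genes, led by Mxi1, a MYC antagonist (log2 -0.40, SE 0.07, adjusted p = 0.0063), Idh1 (log2 -0.38, SE 0.08, adjusted p = 0.0183) and Pdp1, a pyruvate dehydrogenase phosphatase (log2 -0.47, SE 0.11, adjusted p = 0.0236). DESeq2 called 2 of these genes higher.

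The effect of genotype (AMPK-KO minus WT) and the effect of stage were set against each other in 1 model of all 12 libraries, which share no sample between the comparisons. The AMPK-KO mice carry Lyz2cre and the WT mice do not. Loss of AMPK and any effect of Cre or of the Lyz2cre alleles on Lyz2 itself therefore cannot be told apart. The difference of the effects passed for 9 of 38 members, 7 higher and 2 lower, against 12.6% of 19073 genes (6.87% higher and 5.74% lower). For Hif1a, which rose in AMPK-KO and fell in late-stage TAMs, the effects differed by 1.02 on the log2 scale (SE 0.14, adjusted p = 1.6e-04). The effects on Slc2a6 differed by 1.00 (SE 0.15, adjusted p = 3.0e-04), those on Egln3 by 0.66, on Aldoc by 0.62 and on Pfkp by 0.45. Adm differed by -1.39 (SE 0.16, adjusted p = 2.3e-05). These 6 stayed called in all 12 fits that left out a library. Pfkfb4 (0.42) lost the call without AMPK-KO replicate 1 (adjusted p = 0.0530), Pgd (-0.29) in 3 of the 12 fits (without AMPK-KO replicate 1, early replicate 2 and late replicate 3, adjusted p up to 0.0639), and Hk3 (0.39) in 9 of the 12 (adjusted p up to 0.104). For Ldhb, lower in late-stage TAMs and not called in AMPK-KO, the effects differed by 0.28 (SE 0.18, adjusted p = 0.367). The comparisons come from separate experiments that also differ in the Y-linked and Xist levels given above.

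**Figure D5:**
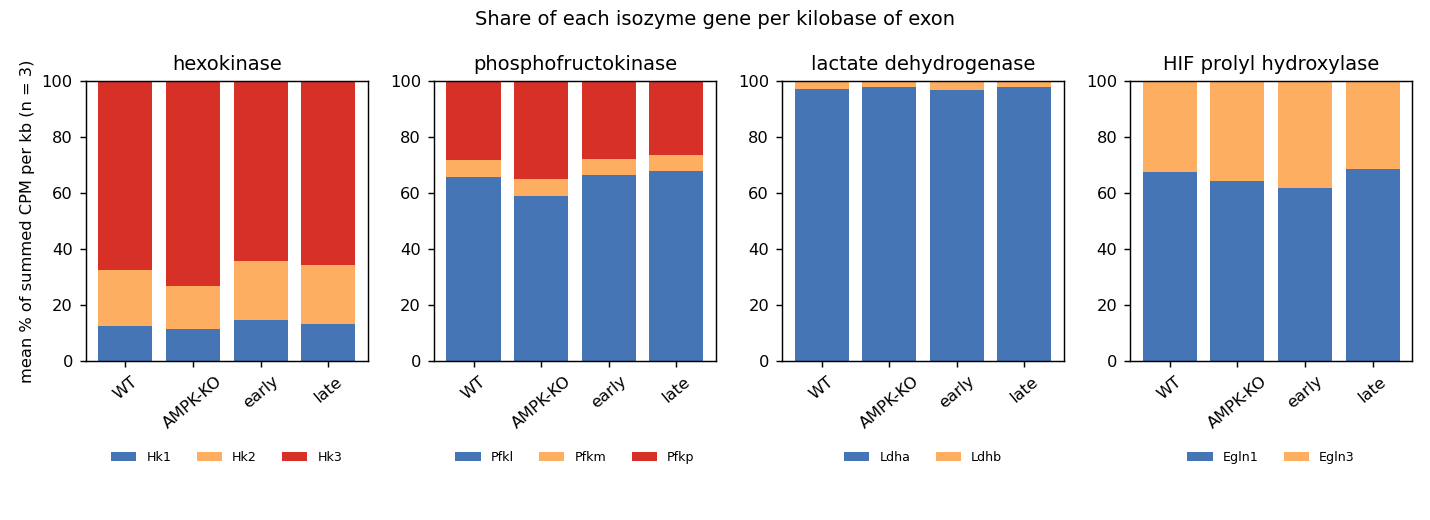
Mean share (y axis, percent of the summed CPM per kilobase of exon of the family, n = 3) of each gene of 4 enzyme families in WT, AMPK-KO, early-stage and late-stage TAMs. Counted over all exons, Hk3, Pfkl, Ldha and Egln1 held the largest share of their family in every group, and Pfkp held 28.1% in WT and 34.8% in AMPK-KO.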

How the data were processed

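Bulk RNA-seq of sorted TAMs was measured in 12 libraries, 3 per group. Per the labels and the methods, the authors mapped reads with HISAT2 to the mouse genome (mm10, GRCm38 in the submitters' notes) and counted them per gene with featureCounts, and they deposited raw counts in 2 tables, one per comparison. Versions and the handling of strand and of multiply mapped reads are not given in the sources used here. No per-sample column was left unused, and the deposited tables were read by gene identifier.

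Low genes were removed by filterByExpr, libraries were scaled with TMM factors, and each table was fitted on its own in edgeR 4.0.16 (R 4.3.3; glmQLFit, glmQLFTest) with group as the only term. Benjamini-Hochberg adjustment covered all genes tested, and genes were called at 0.05. The difference of the effects was a contrast in a fit of all 12 libraries. CPM uses the TMM-scaled library size, and CPM per kilobase uses the exon union of GENCODE M21, or its longest transcript where stated. Of 55401 identifiers, 54349 match M21 with their version and 55141 without, and coordinates are given only for the former. Near-identical copies, meaning other genes with a stretch of at least 150 bases at 95% identity or more, were found with blastn 2.17.0. Scripts were tested on simulated counts.

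The members and lists were chosen with earlier results of these data known. Values per library are given for called members (the 12 with the smallest adjusted p in each comparison) and for Slc2a1, G6pdx, Ldhb and Hif1a. Other pathway genes are named for the 3 smallest adjusted p-values in each direction. Alternatives were DESeq2 1.42.0, RLE and upper-quartile factors, a filter of 10 counts in every library or of 1 count in any, the replicate number as a block, fold thresholds and each library left out. Adding near-identical copies to each member was chosen after the data were seen. Library totals were 71019494 to 84470374 counts, and SDs are between libraries. An SE is the absolute log2 fold change divided by the square root of edgeR's quasi-likelihood F, which uses a spread moderated across genes.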

Additional observations from a re-analysis of the deposited data

How the results depend on the processing

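In AMPK-KO against WT, Slc2a6, Hk3, Pfkp, Aldoc, Pgd, Hif1a, Ndrg1 and Adm kept their direction and call in all 13 alternatives, and in late-stage against early-stage Hif1a did. Requiring an absolute log2 fold change above 1, with either the adjusted p of edgeR or the unadjusted p of DESeq2, left 0 members higher and 1 lower in AMPK-KO and 0 lower in late-stage TAMs, and 0 other pathway genes higher and 0 (edgeR) or 2 (DESeq2) lower in AMPK-KO. Between the stages that rule gave 0 of the other pathway genes lower with both tools and 1 higher with DESeq2. For the difference of the effects it left 1 (edgeR) or 2 (DESeq2) members higher and 1 lower with both, and DESeq2 with the adjusted p called 4 lower. Other pathway genes in late-stage TAMs were 2 higher with DESeq2, 1 higher with at least 10 counts in every library and 3 lower with no filter beyond 1 count, which tests more genes. The cause of the other moves was not tested.

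Leaving out each library in turn gave 7 to 10 members higher and 2 to 9 lower in AMPK-KO (2 without AMPK-KO replicate 2, 9 without WT replicate 1), and 2 to 5 other pathway genes higher and 5 to 12 lower (12 without WT replicate 1). It gave 0 to 3 members higher (3 without early replicate 1) and 1 to 4 lower in late-stage TAMs (1 without early replicate 2 or late replicates 2 or 3), and 0 to 4 other pathway genes higher and 1 to 8 lower. Of the differences between the effects, 5 to 8 were higher and 1 to 6 lower (6 without early replicate 1).

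The sign of 17 effects that were not called turned in at least 1 alternative. In AMPK-KO against WT, Slc2a1 (log2 0.0045) had -0.0034 with no filter beyond 1 count and -0.0098 with upper-quartile factors, and without single libraries it ran from -0.030 to 0.029, Hk2 from -0.044 to 0.046, Gapdh from -0.046 to 0.0077, Ldha from -0.051 to 0.031, Slc16a1 from -0.019 to 0.076 and Tkt from -0.046 to 9.7e-04. In late-stage against early-stage, Pfkp (-8.7e-05) had 9.7e-04 with RLE factors and 0.0041 with at least 10 counts in every library, Gapdh 0.0081 with its copies added, and Taldo1 (0.0059) -0.0079 with upper-quartile factors. Without single libraries, Pfkm ran from -0.20 to 0.095, Pfkp from -0.038 to 0.034, Aldoc from -0.13 to 0.011, Gapdh from -0.086 to 0.054, Pgk1 from -0.076 to 0.013, Eno1 from -0.059 to 0.025, Pdha1 from -0.078 to 6.3e-05, G6pdx from -0.021 to 0.011, Taldo1 from -0.090 to 0.099, Vegfa from -0.16 to 0.054 and Ankrd37 from -0.15 to 0.31.

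Replicate numbers did not pair the libraries: deviations of same-numbered libraries from their group means correlated between -0.0039 and 0.04, and 1 of 6 pairs matched best with its own number. With the replicate number as a block, 9 members were higher and 6 lower in AMPK-KO (Aldoa was gained, adjusted p = 0.0437), 0 higher and 4 lower in late-stage TAMs, and Pfkp had 8.0e-04 there.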
